A study of Homo sapiens with 20 samples.

Results

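The 8 genes described here encode very large proteins and have very long coding sequences: AHNAK (ENSG00000124942), FAT1 (ENSG00000083857), DYNC1H1 (ENSG00000197102), HUWE1 (ENSG00000086758), MACF1 (ENSG00000127603), PLEC (ENSG00000178209), SRRM2 (ENSG00000167978) and KMT2D (ENSG00000167548). They were taken by Ensembl gene ID from a table of 19962 genes, and all 8 were found. They were chosen by coding length with results from these libraries known, and which measured values entered the choice is not recorded. The adjusted p-values below therefore describe the all-gene fit for these 8 genes, and nothing about long mRNAs as a class rests on them.

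The libraries come from PAR-CLIP of IGF2BP3, an oncofetal RNA-binding protein that stabilises and stores mRNAs. In PAR-CLIP, cells take up 4-thiouridine (4sU), ultraviolet light links the labelled RNA to the bound protein, the protein is pulled down after RNase digestion, and each crosslink leaves a T-to-C conversion in the sequenced fragment. The cells were HCT116, a colorectal carcinoma line, carrying Tet-OsTIR1, and every group, controls included, received 4sU at 100 µM for 15 h. Each anti-IGF2BP3 group had 3 libraries and a single matching IgG library.

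The PBS group was vehicle for 2 h, and the arsenite group received 250 µM for 2 h, a source of oxidative stress. The labels name the salt as arsenite in the titles and as arsenate in the protocol and the treatment field. The DMSO group was vehicle for 4 h. The tunicamycin (TM) groups received 5 µg/mL for 1 h or 4 h, which blocks N-glycosylation and so stresses the endoplasmic reticulum. The 1 h TM group was thus set against a 4 h vehicle. RNase amounts are given as alternatives and are not tied to libraries. Nothing in the labels says that libraries of a group came from separate cultures, so p-values measure only the spread between these libraries, which may be technical.

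During acute stress, translation initiation falls, and untranslated mRNAs gather with RNA-binding proteins in stress granules. Long and poorly translated mRNAs are known to be over-represented there, and IGF2BP proteins are known granule components. PAR-CLIP recovers RNA linked to the protein, so a change can follow binding or RNA abundance. RNA abundance was not analysed here, and these cannot be told apart.

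The 15 anti-IGF2BP3 libraries held from 130478 (PBS 2) to 1568406 (TM 4 h replicate 3) gene counts, and the 5 IgG libraries from 5981 to 17503. PBS 2 was the shallowest anti-IGF2BP3 library. The TM and DMSO replicates 1 and 2 belong to one library set by their names, and replicate 3 of each to another. Of 8 intestinal epithelial markers, 6 had clusters of crosslinked reads (CDX1 and VIL1 had none), while 0 of 4 leukocyte, 0 of 4 fibroblast and 0 of 3 endothelial markers had any.

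To show what was recovered, 30-base windows from the most recurrent cluster region of each gene are printed 5′ to 3′ on the RNA strand, as the authors' cluster lists give them. A second FAT1 window, from the most recurrent region outside the last 1 kb, was added after the values were seen because the FAT1 results contrast these positions. Capitals mark CATA, CATC or CATT, searched on the sense strand only, a CA-containing core of the kind reported for IGF2BP proteins. MACF1 had no cluster, and no sequence is printed for PLEC. Coordinates are GRCh38, and exons and UTRs were not assigned here.
FAT1, chr4:186587897-186587926, minus strand: tttagaaccaaaaccaccatgacacagttt
FAT1 upstream, chr4:186621263-186621292, minus strand: ttatgcaggcagaatatacaggactCATTa
SRRM2, chr16:2766410-2766439, plus strand: ggactccaccagtaaccaggaggcgatctc
HUWE1, chrX:53547826-53547855, minus strand: ctgccacctcaaccaCATCtaccaccacca
KMT2D, chr12:49051179-49051208, minus strand: cccccaacctgaggaatcacacctgtcccc
AHNAK, chr11:62516041-62516070, minus strand: taagggaactgtttccttcatgccgccatg
DYNC1H1, chr14:102039418-102039447, plus strand: ttcttgtaccagtactccctccagtttttc

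The windows differ in how often they recurred. The FAT1, SRRM2 and HUWE1 regions shown were found in all 15 libraries and the KMT2D region in 13, whereas the DYNC1H1 region was found in 3 and the AHNAK region in 2. Over all 189 member regions that gave a 30-base window, 25.4% held CATA, CATC or CATT, against 38.85% of 68011 windows over all regions. Among all regions found in at least 10 libraries it was 34.46% of 8351 windows. The share was 11.54% of 26 windows in SRRM2, 27.69% of 65 in FAT1, 28.3% of 53 in KMT2D and 32.43% of 37 in HUWE1. Member windows were also richer in G and C, at 52.77% of bases against 43.8%. A match describes letters in a window and is not a binding site.

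The genes fell into those with dense crosslink clusters and those almost without. FAT1, an atypical cadherin, had 1194 clusters over the 15 libraries in 67 merged regions. SRRM2, a scaffold protein of nuclear speckles, had 516 in 27 regions. KMT2D, a histone H3 lysine methyltransferase, had 331 in 58 regions, and HUWE1, a HECT-type ubiquitin ligase, had 175 in 39 regions. PLEC, which encodes plectin and links intermediate filaments to other structures, had 53 clusters, and 95.74% of their reads lay in the last 1 kb of the gene. The strand of PLEC, and so which end is its last 1 kb, was taken from these clusters. AHNAK, a giant membrane-associated scaffold, and DYNC1H1, the heavy chain of cytoplasmic dynein, had 4 clusters each. MACF1, which crosslinks microtubules and actin, had 0.

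Gene counts include reads outside clusters, so the ratio of cluster reads to gene counts differed in the same way. It was 0.866 for FAT1 and 0.814 for SRRM2, above 0.725 for the whole table. It was 0.474 for KMT2D, 0.47 for HUWE1 and 0.38 for PLEC, and fell to 0.042 for AHNAK and 0.0294 for DYNC1H1. The counts of AHNAK, DYNC1H1 and MACF1 thus came almost wholly from reads outside the clusters assigned to these genes here. Clusters that lay in several genes were not assigned to any.

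The IgG libraries set a limit on all of these counts. FAT1 took 0.266% of IgG counts (exact binomial 95% interval 0.224% to 0.314%, 139 counts) and 0.283% of anti-IGF2BP3 counts. SRRM2 took 0.105% (0.0793% to 0.137%) of IgG counts and 0.128% of anti-IGF2BP3 counts. The IgG intervals of KMT2D and HUWE1 likewise held the anti-IGF2BP3 share. With the 5 conditions pooled, none of the 8 genes took a larger share of anti-IGF2BP3 counts than its IgG interval allowed. By condition, with 1 IgG library each as labelled, SRRM2 and KMT2D did so under arsenite and no other gene or condition did. Under arsenite SRRM2 took 0.238% of anti-IGF2BP3 counts against an IgG interval of 0.044% to 0.182% (9 IgG counts). KMT2D took 0.0651% against 0.00027% to 0.0595% (1 IgG count). The cluster lists of the PBS and arsenite IgG libraries bear each other's names, and the sample labels were kept. Whether their counts were exchanged was not tested. Against the IgG library labelled PBS, SRRM2 under arsenite was still above its interval (0.0235% to 0.0976%). FAT1 under arsenite, at 0.396%, was also above (0.188% to 0.344%), but KMT2D was within (0.0314% to 0.112%). KMT2D in PBS, at 0.0738%, was above the interval of the IgG library labelled arsenite.

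AHNAK took a larger share of IgG counts, 0.0172% (0.00788% to 0.0327%), than of anti-IGF2BP3 counts, 0.00487%. That rests on 9 IgG counts, 7 of them in the IgG library labelled PBS. No IgG library had a cluster in any of the 8 genes, but IgG libraries held only 33 to 180 clusters each. Intervals cover counting error only, and whether IgG recovery plays a part in the changes below was not tested.

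**Figure D1:**
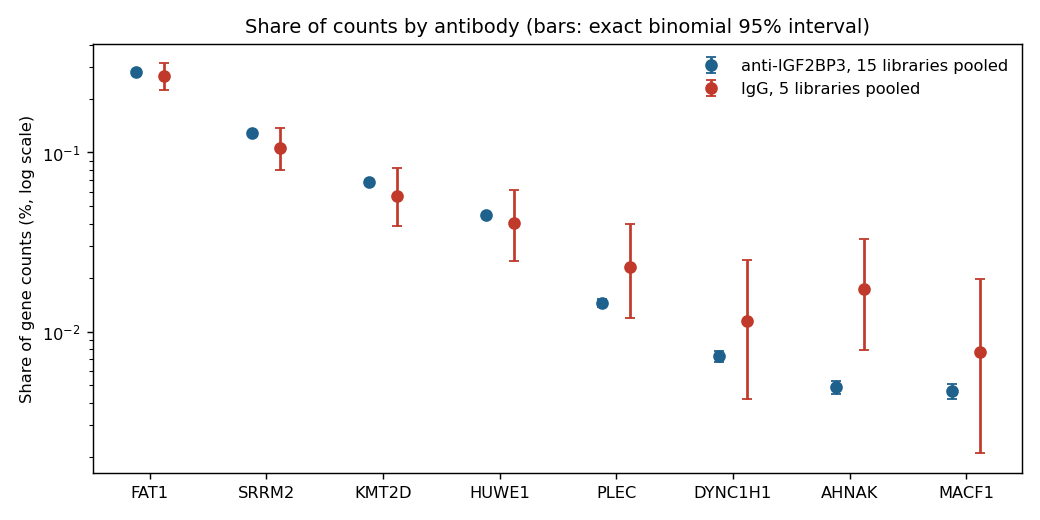
Share of gene counts (percent, log scale) of each gene in the 15 anti-IGF2BP3 libraries pooled and the 5 IgG libraries pooled, with exact binomial 95% intervals. The AHNAK IgG share, 0.0172%, lies above its anti-IGF2BP3 share of 0.00487%, and the other 7 IgG intervals hold the anti-IGF2BP3 share.

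Arsenite went with the largest changes, and they were uneven across the genes. SRRM2 was 2.73-fold higher than in PBS, FAT1 1.39-fold, PLEC 1.32-fold and HUWE1 1.26-fold higher, so 4 of the 8 rose and 0 fell by edgeR (quasi-likelihood F-test, Benjamini-Hochberg adjusted p under 0.05). Among all 6642 genes tested, 17.6% rose and 17.1% fell. The median log2 fold change of the 8 genes was 0.41, beside -0.0013 over all genes tested. Levels are given as CPM, library-scaled counts with TMM factors, and CPM is not corrected for length, so genes are not compared with each other.

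SRRM2 CPM was 956, 946 and 841 in the PBS libraries and 2492, 2455 and 2482 in the arsenite libraries. The arsenite libraries lay far above all others, with no overlap. SRRM2 thus rose by 1.45 on the log2 scale (SE 0.07, edgeR adjusted p = 9.71e-45), and every alternative kept that call. Among libraries with 200000 to 300000 cluster reads, SRRM2 had 14 clusters in PBS 1, 15 in PBS 3 and 45 in arsenite replicate 1.

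FAT1 CPM was 2908, 2670 and 3213 in PBS and 4269, 3969 and 4163 in arsenite. All arsenite libraries were higher than all PBS libraries, by 0.48 on the log2 scale (SE 0.06, edgeR adjusted p = 4.33e-13). Cluster reads alone gave 0.87 (SE 0.27, edgeR adjusted p = 0.0706), which missed the threshold.

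HUWE1 CPM was 485, 564 and 436 in PBS and 650, 630 and 555 in arsenite. The groups overlapped through PBS 2, the shallowest library, which lay above the lowest arsenite library. The log2 fold change was 0.34 (SE 0.1, edgeR adjusted p = 0.00299). Without PBS 3 the adjusted p was 0.081, and with DESeq2 it was 0.0641.

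PLEC CPM was 127, 199 and 142.7 in PBS and 234, 168 and 183 in arsenite, again with an overlap through PBS 2. The log2 fold change was 0.40 (SE 0.16, edgeR adjusted p = 0.0433). This call was lost with DESeq2 (adjusted p = 0.241), with library totals (0.054), with no filter on low counts (0.0595) and without PBS 1 (0.325), PBS 3 (0.134), arsenite replicate 1 (0.162) or arsenite replicate 3 (0.056).

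The other 4 genes did not pass. AHNAK CPM was 36.6, 31.8 and 43.3 in PBS and 55.8, 51.9 and 50.9 in arsenite, with no overlap, yet on 4 to 54 counts a library its log2 fold change of 0.43 (SE 0.3) had an edgeR adjusted p of 0.261. DYNC1H1 CPM ranged from 60.9 to 86.6 in PBS and from 86.3 to 121 in arsenite, with an edgeR adjusted p of 0.096. MACF1 ranged from 23.8 to 70.7 in PBS and from 17.8 to 46.2 in arsenite (edgeR adjusted p = 0.238).

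KMT2D CPM was 702, 723 and 836 in PBS and 708, 630 and 694 in arsenite. Its log2 fold change was -0.17, with an approximate 95% interval from -0.33 to -0.00076. The edgeR p was 0.0507 before adjustment and 0.117 after, so neither passed 0.05. In gene counts KMT2D is the only densely clustered gene of the 8 whose estimate lay below 0. Cluster reads alone gave KMT2D the opposite sign, 0.40 (SE 0.67, edgeR adjusted p = 0.779). The CPM values of AHNAK, FAT1 and SRRM2 did not overlap between arsenite and PBS, beside 40.8% of 7558 genes compared.

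**Figure D2:**
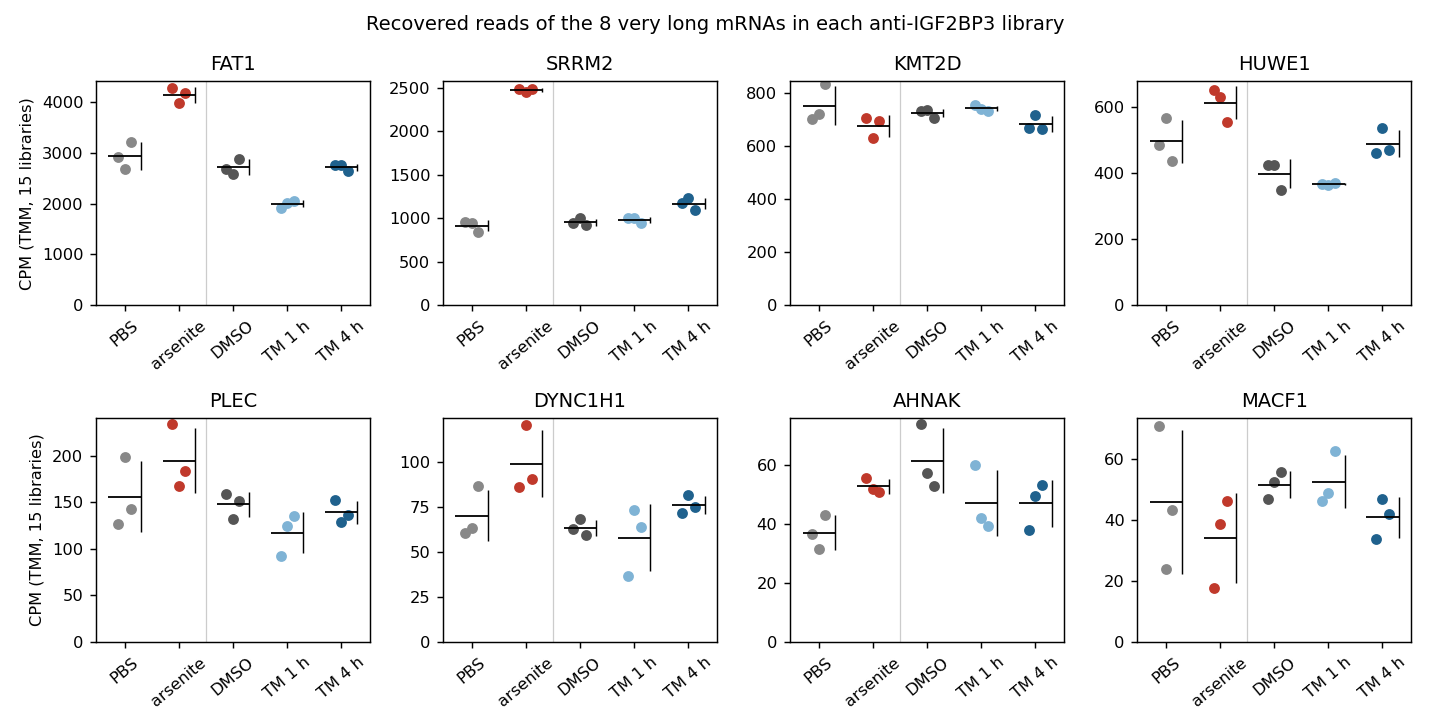
CPM (TMM scaling over 15 libraries) of each gene in every anti-IGF2BP3 library, by condition, with points for libraries, a horizontal line for the mean and a vertical line for the SD of 3 libraries. SRRM2 arsenite libraries sit between 2455 and 2492 and those of every other condition at or below 1230, and FAT1 is lowest at TM 1 h.

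After 1 h of TM, FAT1 was the only one of the 8 called. It fell, beside 0.408% of 8343 genes that fell, and 0 of the 8 rose, beside 0.144%. FAT1 CPM was 2675, 2571 and 2881 in DMSO and 1916, 2016 and 2051 at 1 h, with no overlap (15.7% of genes compared did not overlap). The log2 fold change was -0.44 (SE 0.07, edgeR adjusted p = 4.9e-05), and this call was kept in every alternative. Cluster reads gave -0.55 (SE 0.24, edgeR adjusted p = 1).

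AHNAK had an equal estimate of -0.44 on few counts (SE 0.23, edgeR adjusted p = 0.544), and its groups overlapped. The remaining estimates ran from -0.22 for PLEC to 0.08 for MACF1, and none passed. The median of the 8 was -0.05, beside 0.0020 over all genes.

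After 4 h of TM, HUWE1 and SRRM2 rose and 0 of the 8 fell, beside 2.79% of 8343 genes that rose and 2.31% that fell. HUWE1 CPM was 422, 422 and 349 in DMSO and 461, 537 and 468 at 4 h. Every TM 4 h library was higher than every DMSO library, by 0.31 on the log2 scale on average (SE 0.09, edgeR adjusted p = 0.0216).

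SRRM2 CPM was 944, 1002 and 923 in DMSO and 1182, 1230 and 1100 at 4 h, also with no overlap. It rose by 0.28 on the log2 scale (SE 0.07, edgeR adjusted p = 0.0112). Both calls were lost without TM 4 h replicate 2 (adjusted p = 0.174 for HUWE1 and 0.0971 for SRRM2) and without DMSO replicate 3 (0.354 and 0.0984). They were also lost within the library set of replicates 1 and 2 (0.33 and 0.0502) and with no filter on low counts (0.109 and 0.0728), and that of HUWE1 with DESeq2 (0.168).

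FAT1 at 4 h was 2762, 2749 and 2633 CPM, within the DMSO range, with a log2 fold change of -0.0030 (95% interval -0.14 to 0.13). DYNC1H1 did not overlap between the groups, at 59.6 to 68.3 CPM in DMSO and 71.9 to 81.8 at 4 h, but had an edgeR adjusted p of 0.455. HUWE1, SRRM2 and DYNC1H1 were the genes without overlap, beside 21.2% of genes compared. The KMT2D estimate was -0.09, PLEC -0.09, AHNAK -0.25 and MACF1 -0.34, and none passed.

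**Figure D3:**
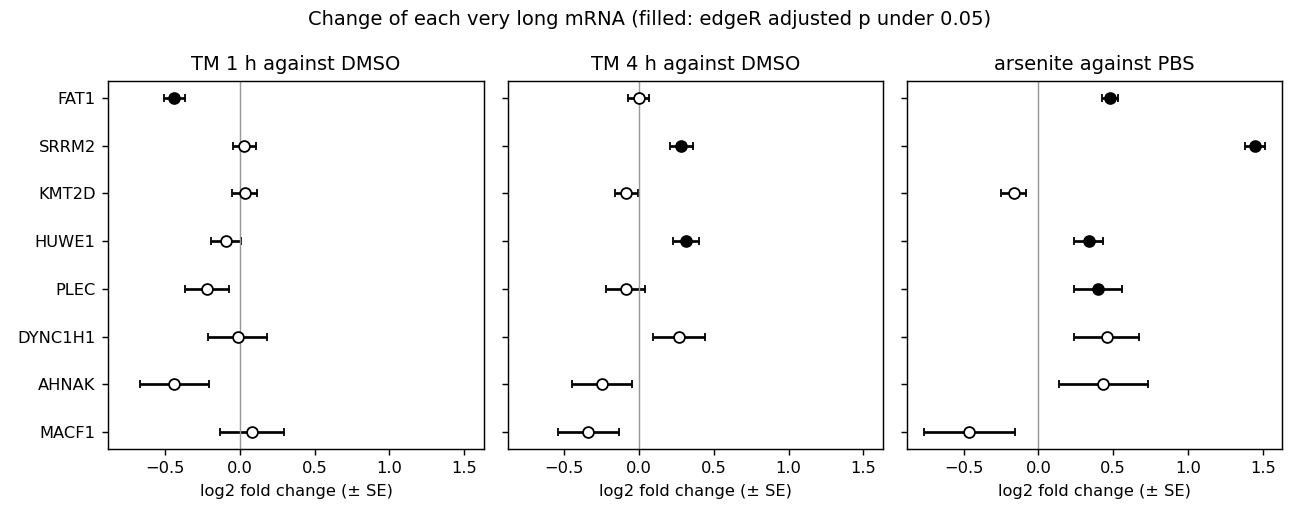
The log2 fold change of each gene with its standard error in the 3 comparisons with a vehicle, filled where the edgeR adjusted p is under 0.05. SRRM2 stands at 1.45 under arsenite and 0.28 at TM 4 h, and FAT1 at -0.44 at TM 1 h and 0.48 under arsenite.

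Set directly against each other, TM 4 h was higher than TM 1 h for 3 of the 8 (5.6% of all genes tested were higher) and lower for 0 (5.99%). FAT1 was higher by 0.44 on the log2 scale (SE 0.07, edgeR adjusted p = 4.48e-06) and HUWE1 by 0.41 (SE 0.1, edgeR adjusted p = 0.00185). HUWE1 CPM at 1 h was 366, 364 and 370, below all TM 4 h libraries. FAT1, HUWE1 and SRRM2 were higher at 4 h without overlap, and KMT2D was lower without overlap, beside 28.3% of genes compared. KMT2D CPM was 754, 742 and 733 at 1 h and 670, 719 and 663 at 4 h, but its log2 change of -0.12 did not pass (edgeR adjusted p = 0.4). SRRM2 was higher by 0.25 (SE 0.08, edgeR adjusted p = 0.0222), a call lost without TM 1 h replicate 3 (0.149), TM 4 h replicate 1 (0.0557) or TM 4 h replicate 2 (0.124), with no filter on low counts (0.076) and within replicates 1 and 2 (0.0676).

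The arsenite change was tested against the TM 4 h change, each relative to its own vehicle. The arsenite change was larger for 2 of the 8 (8.57% of 7796 genes) and smaller for 0 (9.74%). SRRM2 differed by 1.16 (SE 0.1, edgeR adjusted p = 1.98e-14) and FAT1 by 0.48 (SE 0.09, edgeR adjusted p = 5.61e-05). HUWE1, which rose in both, differed by 0.02 with a 95% interval from -0.25 to 0.28. PLEC differed by 0.48 (edgeR adjusted p = 0.0951) and did not pass. The 2 stresses lie in different library sets and are joined only through their vehicles.

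FAT1 clusters were spread along the gene (chr4:186587794-186726696, minus strand), with 9 of the 67 regions found in all 15 libraries. The region at the 3′ end (chr4:186587804-186588258) held 2997 cluster reads, and a region starting 32.9 kb upstream (chr4:186620677-186621683) held 2881. These are the regions of the FAT1 windows printed above. The 3′ region took 7.38% ± 1.01 (SD, n = 3) of FAT1 cluster reads under arsenite and 19.7% ± 5.8 in PBS. In the other set of groups it took 25.9% ± 7.76 at TM 1 h, 10.1% ± 1.5 at TM 4 h and 15.5% ± 2.57 in DMSO.

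**Figure D4:**
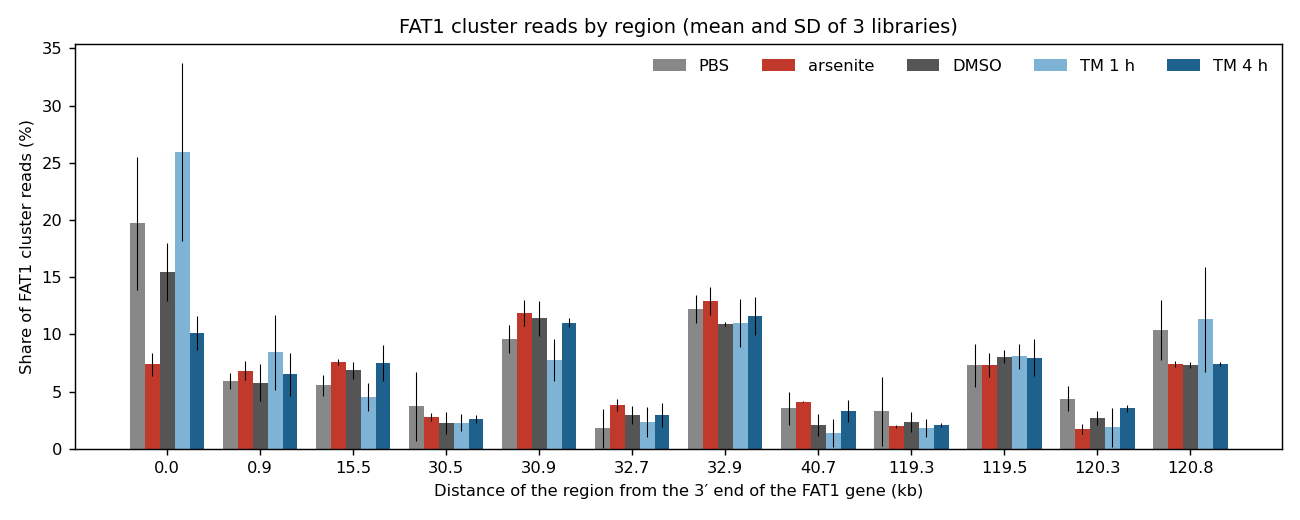
Share of FAT1 cluster reads (percent, mean and SD of 3 libraries) in the regions found in at least 14 libraries, against the distance of the region from the 3′ end of the gene in kb. The region at 0 kb runs from 7.38% under arsenite to 25.9% at TM 1 h, and the other regions differ less between conditions.

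Because of that pattern, the share of FAT1 cluster reads in the last 1 kb was compared between conditions, a measure chosen after the region values were seen. It was 18.1%, 26.4% and 20.5% in PBS and 9.66%, 12.8% and 10.8% under arsenite. DMSO libraries had 22.2%, 16.9% and 17.1%, TM 1 h libraries 34.0%, 27.4% and 24.0%, and TM 4 h libraries 15.7%, 11.7% and 12.7%. The groups did not overlap in any of the 4 comparisons, but how many other genes also had no overlap in this share was not counted. The measure was picked from these same libraries, so the values are a description and no p is given for it.

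The same share over all genes fell from 39.5% ± 2.02 in PBS to 30.2% ± 1.15 under arsenite without overlap, while the TM groups and DMSO overlapped, between 33.4% and 39.2%. In an edgeR fit of the last-1-kb to upstream ratio across all genes, FAT1 did not pass in any comparison. The log2 change in its ratio was -1.10 under arsenite (SE 0.23, edgeR adjusted p = 0.0824, all-gene median -0.81). It was 0.78 at TM 1 h (SE 0.28, edgeR adjusted p = 1), -0.58 at TM 4 h (SE 0.28, edgeR adjusted p = 0.999) and -1.36 between TM 4 h and TM 1 h (SE 0.28, edgeR adjusted p = 0.947). The all-gene medians were 0.039, -0.16 and -0.20 in that order. Counted from the lowest change, FAT1 stood at percentiles 75.1, 33.6 and 19.9 of 1529 genes, and at 44.1 of 966 genes under arsenite. Calls over all genes were 0.311% lower under arsenite and 0% in the TM comparisons.

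The share also moved with depth, since the shallowest libraries, PBS 2 and TM 1 h replicate 1, had the highest FAT1 share of their groups, though the shallowest arsenite library had the lowest of its group. Among libraries with 200000 to 300000 cluster reads it was 18.1% and 20.5% in PBS 1 and PBS 3 and 9.66% in arsenite replicate 1. In that range it was 22.2% in DMSO 1, 27.4% in TM 1 h replicate 2 and 15.7% in TM 4 h replicate 1. At like depth arsenite was thus below PBS, TM 4 h below DMSO and TM 1 h above DMSO, with 1 or 2 libraries each and no test.

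**Figure D5:**
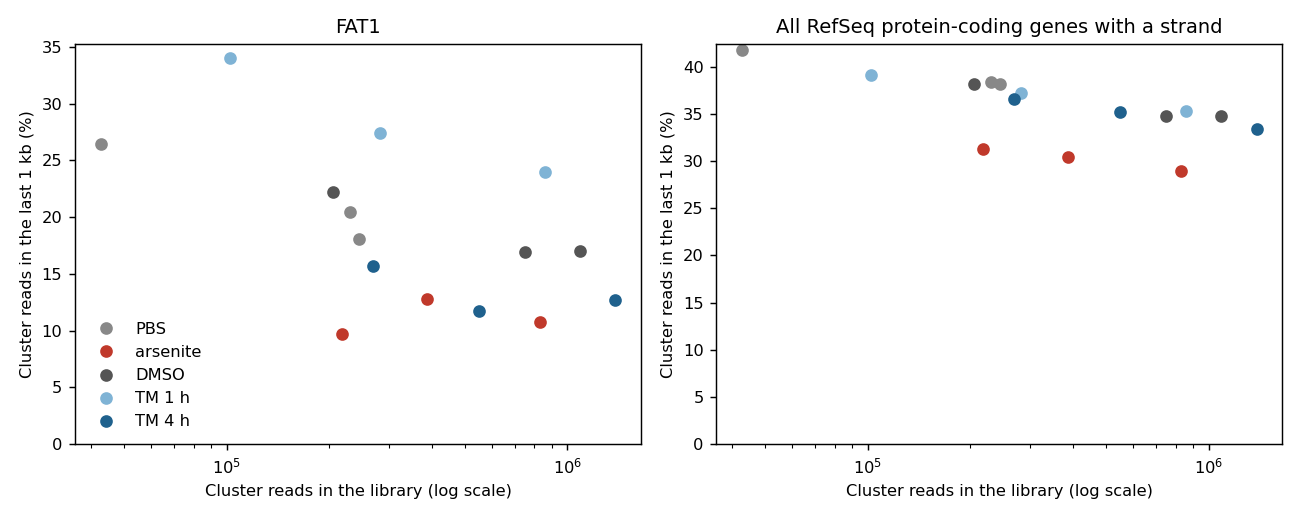
Share of cluster reads in the last 1 kb of the gene (percent) against the cluster reads of each library (log scale), for FAT1 and for all RefSeq protein-coding genes with a known strand. FAT1 points of arsenite lie between 9.66% and 12.8% and those of TM 1 h between 24.0% and 34.0%, and in the panel of all genes the share falls from the shallowest to the deepest library in every condition.

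SRRM2 cluster reads lay mostly upstream of the gene's end, with 3.67% in the last 1 kb. The 1308-base region starting 4.2 kb from the end (chr16:2765946-2767253) held 3551 reads and was found in all 15 libraries. It took 53.7%, 100.0% and 45.8% of SRRM2 cluster reads in PBS, the second value from only 13 reads, and 35.5%, 31.8% and 30.9% under arsenite. All PBS libraries were higher than all arsenite libraries, and this was not tested. TM 1 h had 35.5% ± 3.15 (SD, n = 3), TM 4 h 34.6% ± 3.19 and DMSO 33.4% ± 4.16. HUWE1 had 1 region in all 15 libraries (chrX:53547673-53548039), with 739 reads.

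The T-to-C conversion share of the 8 genes' clusters was 9.35%, 9.63% and 9.60% in PBS and 10.5%, 10.4% and 10.7% under arsenite. The arsenite libraries were all higher, with a difference of 1.03 percentage points and an exact two-sided permutation p of 0.1 (0.3 after adjustment over 3 comparisons). With 3 against 3 libraries this test cannot give a p below 0.1, so it could not pass and decides nothing here. The pooled share weights genes by their conversion events, which shifted towards SRRM2 (1170 of 7718 events in PBS 1 and 4315 of 14516 in arsenite replicate 1). Gene by gene, arsenite differed from PBS by 0.782 points for FAT1 without overlap, by 0.156 for SRRM2 with overlap and by -0.422 for HUWE1 with overlap. KMT2D differed by 1.04 points without overlap, with 2 PBS libraries. All clusters differed in the same direction as the pooled share, 8.70% ± 0.0974 against 8.01% ± 0.0969 (SD, n = 3). At TM 4 h the share was 11.2%, 10.2% and 9.45%, and at TM 1 h 8.59%, 9.86% and 9.52%, against 9.98%, 9.41% and 9.56% in DMSO. Both TM groups overlapped DMSO (exact permutation p = 0.3 and 0.5, adjusted 0.45 and 0.5).

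Genes related to the 8 were read through cluster reads, since gene symbols of other rows were not given with the counts. In the 3 TM comparisons 0 genes of the 8 related lists passed, beside 0% of 4655 genes at TM 1 h, 0.215% at TM 4 h and 0.301% between TM 4 h and TM 1 h. In arsenite against PBS, 8.88% of 2668 genes rose and 3.11% fell, with a median log2 change of 0.31. Clusters were called in each library, and PBS libraries held 42699 to 244475 cluster reads against 218140 to 828783 under arsenite. The part of depth in these rises was not tested.

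Of 8 genes tested from the KMT2 family and its complex, KMT2E (log2 change 1.44, SE 0.2, edgeR adjusted p = 0.00528) and NCOA6 (2.92, SE 0.49, edgeR adjusted p = 0.0103) rose. Of 7 nuclear speckle genes tested, SRRM1, a partner of SRRM2 in splicing, rose by 2.11 (SE 0.27, edgeR adjusted p = 0.00315).

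Of 6 tested among 33 other genes of giant proteins, a hand-made list, MKI67, a coat protein of mitotic chromosomes, rose by 2.42 (SE 0.48, edgeR adjusted p = 0.0176). RANBP2, SPTBN1, USP34, NF1 and MYH9 did not pass. None of 9 dynein and dynactin genes, 2 plakin and filament genes or 1 AHNAK partner passed, and no FAT or flamingo cadherin had enough reads to be tested. In this fit, 5 of the 8 very long mRNAs were tested, and HUWE1 (1.39) and SRRM2 (2.54) rose, beside 8.88% of all genes tested. Gene counts gave smaller changes for them, 0.34 and 1.45. HUWE1 had only 56, 11 and 38 cluster reads in the PBS libraries.

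Across the 15 libraries, the genes did not move as one. The correlation of centred log2 CPM was highest between FAT1 and SRRM2 (Pearson r = 0.70) and lowest between MACF1 and PLEC (-0.69), and that between KMT2D and HUWE1 was -0.68. These describe 15 libraries that share conditions, depth and library sets. MACF1 had only 3 to 69 counts a library and PLEC 20 to 211, and the part of counting noise in their correlation was not tested. The genes whose pattern was most like the mean of the 8 were ENSG00000150991_15 (r = 0.957) and ENSG00000029363_17 (r = 0.952), of 3333 genes compared over 15 libraries.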

How the data were processed

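The authors deposited raw gene counts for 20 libraries and, per library, clusters with read counts and conversion counts. Per the submitters' processing notes, bcl2fastq 2.20.0.422, UMI-tools 1.1.1, Trimmomatic 0.30, Bowtie 0.12.7 and featureCounts 2.0.1 were used with GRCh38.p13 and hg38. The cluster caller, annotation and strand setting are not given in the sources used here. The members and gene lists were chosen with earlier results of these data known.

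Counts were tested with edgeR 4.0.16 (R 4.3.3; TMM, filterByExpr, quasi-likelihood, Benjamini-Hochberg over all genes tested, threshold 0.05), with DESeq2 1.42.0 as an alternative. TM 1 h, TM 4 h and DMSO shared one fit, and PBS and arsenite another. All 8 genes passed the low-count filter. Named were the 8 genes, called genes of the lists, and the genes most like the mean of the 8. One list of related genes is not reported here. Clusters were placed in RefSeq genes (GRCh38.p14) where exactly 1 gene of the same strand held them (84.2% of clusters), and merged where they overlapped. Those in several genes (2.3%) were left out, and genes of unknown strand were taken to lie on both strands. Their letters matched RefSeq promoter letters in 539 of 539 cases. The last-1-kb ratio needed a mean of 5 reads in each part. The scripts were tested on simulated data. Replicate numbers gave no sign of pairing libraries (same-number r from -0.115 to 0.0853), which cannot exclude pairing. In the TM and DMSO groups the number also carries the library set, with replicate 3 apart. All replicate pairs differed beyond sampling noise.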

Additional observations from a re-analysis of the deposited data

Results flagged for a closer look

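Some of the 8 genes changed by different amounts at the 2 TM times, as tested directly in edgeR. FAT1 was higher at 4 h than at 1 h by 0.44 on the log2 scale, HUWE1 by 0.41 and SRRM2 by 0.25 (5.6% of all genes tested were higher). The SRRM2 call was lost in 5 alternatives. For each of these genes the 3 libraries at 4 h all lay above the 3 at 1 h, and KMT2D lay below without overlap. Of all genes compared, 28.3% had no overlap, counting both directions. The arsenite change also exceeded the TM 4 h change for FAT1, by 0.48, and for SRRM2, by 1.16 (8.57% of all genes tested). Whether binding or RNA abundance differed was not tested.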

How the results depend on the processing

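For members that passed, 169 of 192 re-fits kept direction and call, and 23 kept direction only. For members that did not pass, 439 of 461 did, 21 changed sign and 1 newly passed. With replicate number as a block (replicate block), members called stayed at 1, 2, 3, 4 and 2 for TM 1 h, TM 4 h, TM 4 h against TM 1 h, arsenite and the arsenite minus TM 4 h difference. The HUWE1 difference was -0.0030 with the block, and the FAT1 last-1-kb ratio under arsenite was -1.14, with an edgeR adjusted p of 0.00119, against 0.0824 without it. The numbers showed no sign of pairing libraries, though this cannot exclude it. That ratio was also chosen after the region values were seen, so it is not taken as passing. The FAT1 windows, block and depth settings were chosen after seeing the data.

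Members called at TM 4 h against DMSO were 1 with DESeq2, 0 with no filter on low counts and 0 with replicates 1 and 2 only, and 0 to 2 leaving out a library. Under arsenite they were 2 with DESeq2 and 2 to 4 leaving out a library. Of other giant genes in the cluster-read fit, 1 was called under arsenite. There were 2 with RLE size factors, 2 with no filter, 2 at a mean count of at least 50, 3 with DESeq2, and 0 to 3 leaving out a library. TM 4 h against TM 1 h gave 0, but 2 with DESeq2 and 1 with no filter. The arsenite minus TM 4 h difference gave 1, 2 with DESeq2, and 0 to 1 leaving out a library.

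Signs turned for estimates near 0. FAT1 at TM 4 h was 0.015 with library totals, 0.024 at a mean count of at least 50, 0.075 with replicates 1 and 2, and -0.040 to 0.048 leaving out a library. With replicates 1 and 2, MACF1 at TM 1 h was -0.076 and AHNAK at TM 4 h against TM 1 h was -0.10. The HUWE1 arsenite minus TM 4 h difference was -0.015 with library totals. Leaving out a library gave -0.11 to 0.085 for DYNC1H1 and -0.14 to 0.16 for MACF1 at TM 1 h. It gave -0.058 to 0.12 for HUWE1, -0.45 to 0.34 for MACF1 and -0.13 to 0.046 for KMT2D in that difference. The member conversion share at TM 1 h ranged from -0.595 to 0.0401 percentage points. The cause of these moves was not tested. PBS 2, with the fewest counts, limits the arsenite comparison for AHNAK, MACF1 and DYNC1H1.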
